A study of Caenorhabditis elegans with 4 samples.

Results

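The genes described here are those that the authors' tables list as lower in VZ1 than in N2 and that carry only a sequence name, such as F54F7.3 or D1086.10. They number 45 genes, of the 105 genes listed lower in VZ1 in either strain table and of 291 genes named in all 4 tables. They were chosen from the difference between the strains itself, so the strain ratios below describe the choice and are no test of it. The RNA came from whole Caenorhabditis elegans of 2 strains at the young adult stage and was measured by RNA-seq. N2 is the standard wild-type strain, and VZ1 is known as an inbred strain that lacks part of trx-1, which encodes a thioredoxin of the ASJ pair of sensory neurons. Animals of each strain were kept on OP50, the usual bacterial food, and either left unstressed or exposed to 10 mM NaAs (sodium arsenite) for 5 h. Each of the 4 groups has 1 library, so no difference has a replicate check, and a gene is called lower only because the authors' deposited table lists it.

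A sequence name joins the name of the genomic clone that first held a gene with a number along that clone. The genome project gave one to every predicted gene, and a gene symbol is added once a family, a phenotype or a function has been described. Genes known only by sequence are thus a mixed set, held together by what has not yet been described. In a whole animal their RNA can come from any tissue, and fewer cells of a type and less RNA per cell cannot be told apart. All 45 were found in RefSeq's gene table for WBcel235, and all are protein-coding there. Of the 45, 9 have since received a symbol and 36 are still known by sequence. T10E9.3 is now cpg-22, named for the chondroitin proteoglycans, and F49E12.1 is skpo-1, a peroxidase gene known for its part in defence against bacteria. C08F11.11 is ule-4, named for proteins of the uterine lumen, F15E11.15 is pud-3, named for proteins that are more abundant in daf-2 mutants, and F48E3.4 is try-14, a trypsin-like protease gene. The others are C05E7.2 (gmap-3), F07H5.8 (appg-2), M02G9.2 (idpp-4) and T06E4.8 (idpc-5). Of all 105 genes listed lower in VZ1, 34.3% still have only a sequence name, beside 43.5% of the 19983 protein-coding genes of that annotation.

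Without stress, 22 members' loci, covering 23 genes, were listed lower in VZ1, of 60 loci lower in all (0.416% of 14419 genes tested). Under arsenite the list held 30 entries for 29 loci and 35 genes, of 70 entries lower in all (0.488% of 14358 genes tested). None of the entries higher in VZ1, 3 in each table (0.0208% of genes tested without stress and 0.0209% under arsenite), has only a sequence name. FPKM is a level scaled to exon length and to the fragments mapped. At 20 loci with a value above 0 in both unstressed strains, FPKM was lower in VZ1 by 3.96-fold to 34.2-fold, with a median of 8.03-fold. Under arsenite the 26 such loci were lower by 3.74-fold to 20.8-fold, with a median of 8.08-fold. The other 38 and 40 lower entries had medians of 9.09-fold without stress and 6.26-fold under arsenite, and the cuticle collagen genes among them 14.9-fold and 7.62-fold. The authors' test compares libraries and not strains, and the libraries' depth is unknown.

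Both strain tables list 13 of the 45 genes, which is 56.5% of the members listed without stress and 37.1% of those listed under arsenite. The 13 are 28.9% of the members, and the 30 genes that both tables list as lower are 28.6% of all 105, so the members' share is close to that of the whole. The 2 tables have no library in common. Among the genes with a symbol today, T10E9.3 (cpg-22; chromosome I, 6534117 to 6541165 in ce10) stood at 118 FPKM in unstressed and 83.8 FPKM in stressed N2, and at 11.7 and 14.02 FPKM in unstressed and stressed VZ1. Both VZ1 values lie well under both N2 values. F49E12.1 (skpo-1; chromosome II, 8400340 to 8404775) stood at 20.6 and 8.90 FPKM in unstressed and stressed N2 and at 2.90 and 0.57 FPKM in VZ1. It was lower in VZ1 and also lower with arsenite in each strain. C08F11.11 (ule-4; chromosome IV, 13646795 to 13647404) stood at 705 and 720.5 FPKM in unstressed and stressed N2 and at 97.2 and 87.0 FPKM in VZ1. Its level differed between the strains by 7.25-fold and 8.29-fold and hardly between conditions.

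Besides C08F11.11, the highest levels of the 13 belonged to C02E7.7, Y47D7A.15 and D1086.10. C02E7.7 (chromosome V, 4918210 to 4918542), whose longest annotated coding sequence gives 66 amino acids, stood at 2916 and 2260.4 FPKM in unstressed and stressed N2 and at 239.6 and 314 FPKM in VZ1. The VZ1 values were 12.2-fold and 7.20-fold under those of N2, and higher than the N2 values of most of the 13 genes. Y47D7A.15 (chromosome V, 4431661 to 4433031) stood at 1765 and 983 FPKM in N2 and at 153 and 74.0 FPKM in VZ1. Under arsenite it has 2 entries of the same extent, the other with 242 FPKM in N2 and 18.02 FPKM in VZ1, and their log2 ratios of VZ1 to N2 were −3.73 and −3.74. The annotation has the gene on the minus strand. The numbering of entries matched the annotated strand for all 18 and 15 other genes checked on V in the strain tables. On III it did not match for cpg-2, col-91 and sip-1 without stress, nor for mup-4 and col-97 under arsenite. By this numbering, the unstressed entry and the stressed entry of 983 FPKM lie on the plus strand and the lower one on the minus strand. The levels of 1765 and 983 FPKM may thus belong to the opposite strand, and since strandedness of the reads is not given in the sources used here, the gene and an antisense transcript cannot be told apart. D1086.10 (chromosome V, 14082786 to 14083464) stood at 582 and 518 FPKM in N2 and at 147 and 129.8 FPKM in VZ1, the smallest strain ratios of the 13, although its locus under arsenite also covers D1086.7 and D1086.18.

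Among the 13 genes, the largest strain ratios without stress belonged to F54F7.3, D1086.11 and R03G8.6. F54F7.3 (chromosome X, 11849382 to 11850047) stood at 74.4 and 64.9 FPKM in unstressed and stressed N2 and at 2.17 and 4.09 FPKM in VZ1, which is 34.2-fold and 15.9-fold lower. D1086.11 (chromosome V, 14071604 to 14076695) stood at 73.8 and 48.0 FPKM in N2 and at 3.88 and 2.30 FPKM in VZ1, 18.99-fold and 20.8-fold lower. The ratio of D1086.11 was close to the same in both conditions, that of F54F7.3 was not. R03G8.6 (chromosome X, 13094557 to 13100340) stood at 13.8 and 9.23 FPKM in N2 and at 0.756 and 0.881 FPKM in VZ1. Y45F10C.4 (chromosome IV, 13663393 to 13664132) stood at 107 and 98.6 FPKM in N2 and at 6.72 and 8.56 FPKM in VZ1. For both genes the VZ1 value was higher with arsenite and the N2 value lower.

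None of the remaining 3 genes was higher with arsenite in either strain. C30H6.5 (chromosome IV, 17371723 to 17375362) stood at 57.2 and 35.4 FPKM in unstressed and stressed N2 and at 7.297 and 3.996 FPKM in VZ1. C39D10.7 (chromosome X, 7907866 to 7914987) stood at 36.5 and 12.1 FPKM in N2 and at 6.69 and 1.43 FPKM in VZ1. F55B11.2 (chromosome IV, 14422318 to 14423246) stood at 56.4 and 56.3 FPKM in N2 and at 6.86 and 3.13 FPKM in VZ1, with F55B11.7 in the same locus without stress only, and its N2 values are nearly equal. For all 13 genes the lower N2 value exceeded the higher VZ1 value, by 1.81-fold at the least (C39D10.7) and 15.9-fold at the most (F54F7.3). The same holds for all 15 collagen genes that both tables list as lower. The strain ratio of 10 of the 13 genes differed by less than 1 on the log2 scale between the conditions. The exceptions were F49E12.1 (−2.83 without and −3.96 with arsenite), F54F7.3 (−5.10 and −3.99) and F55B11.2 (−3.04 and −4.17), the last at loci of unlike extent. For each of the 15 collagen genes the ratio differed by less than 1, the most for col-20 (−5.85 and −4.88). These 15 are only those lower in both conditions. The collagen gene col-3 was listed lower in VZ1 without stress and higher under arsenite, and is not among them.

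**Figure D1:**
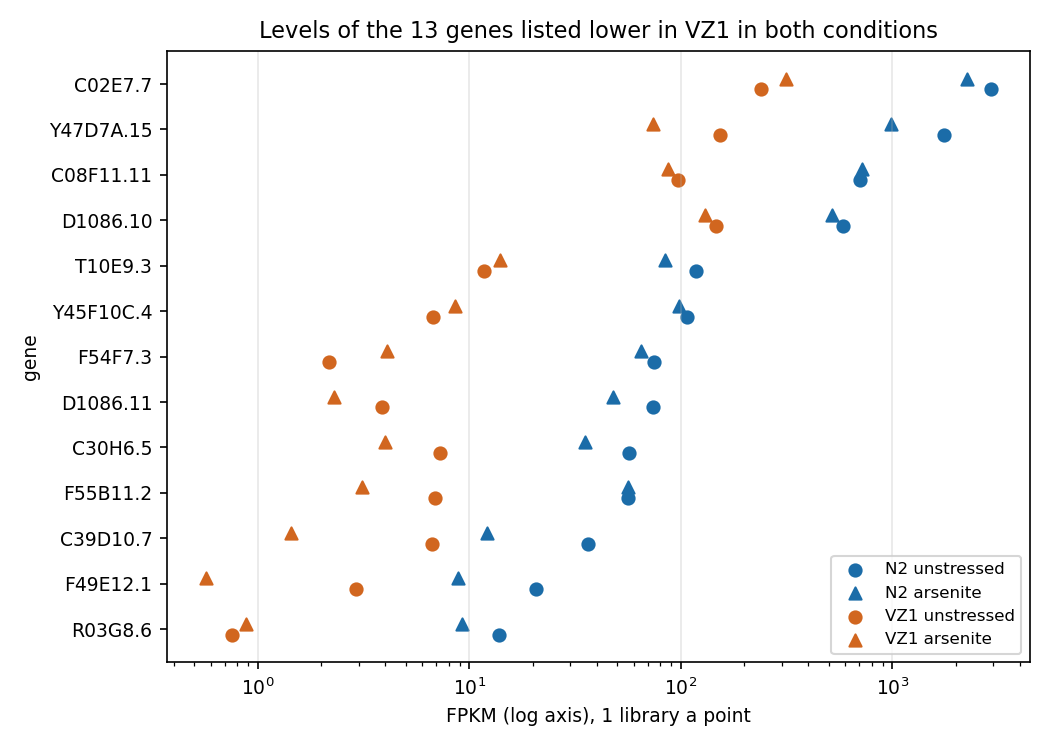
FPKM (log axis) of the 13 sequence-named genes that both strain tables list as lower in VZ1, 1 point a library, blue for N2 and orange for VZ1, circles unstressed and triangles under arsenite. For every gene both orange points lie left of both blue points, from C02E7.7 at 2916 FPKM in unstressed N2 down to R03G8.6 at 13.8 FPKM.

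The rule set no condition on the change with arsenite, but these 13 genes are those listed lower in VZ1 in both conditions. Their changes come from the same values and are not independent of that choice. A gene that changed strongly in either strain may be missing from a strain table, so small changes may partly follow from the choice. For these 13 genes the change is known only across strain tables that the authors normalised separately. In N2 the log2 ratio of stressed to unstressed FPKM was below 0 for 12 of the 13, from −1.59 for C39D10.7 to 0.03 for C08F11.11, with a median of −0.49. In VZ1 it was below 0 for 8 and above 0 for 5, from −2.35 for F49E12.1 to 0.91 for F54F7.3, with a median of −0.18. The VZ1 median was 0.22 over the 7 loci with the same extent in both tables, and −0.47 over the genes still known only by sequence. None of the 13 is listed by the authors as changed with arsenite in either strain. The lists of genes that fell with arsenite hold 0.25% of the genes tested in N2 and 0.125% of those tested in VZ1.

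The 13 genes spanned a range of changes. C39D10.7 and F49E12.1 were lower with arsenite in both strains, by log2 −1.59 and −1.21 in N2 and by −2.23 and −2.35 in VZ1. Y47D7A.15 (log2 −0.84 in N2 and −1.05 in VZ1), C30H6.5 (−0.69 and −0.87) and D1086.11 (−0.62 and −0.75) were moderately lower in both. C08F11.11 (0.03 and −0.16) and D1086.10 (−0.17 and −0.18) were nearly level. T10E9.3 (−0.49 and 0.26), C02E7.7 (−0.37 and 0.39), Y45F10C.4 (−0.12 and 0.35), R03G8.6 (−0.58 and 0.22) and F54F7.3 (−0.20 and 0.91) were lower in N2 and higher in VZ1, T10E9.3 at loci of unlike extent (7.05 kb without stress and 4.91 kb under arsenite). F55B11.2, also at unlike loci, was level in N2 (−0.0011) and lower in VZ1 (−1.13). The extent also differs for C39D10.7, D1086.10, D1086.11 and Y47D7A.15. The 15 collagen genes of both tables ranged from −3.04 to −0.54 in N2 and from −2.25 to −0.36 in VZ1, all below 0. Of the 13 sequence-named genes 7 lay above that range in N2 and 7 in VZ1, among them 6 in both (C02E7.7, C08F11.11, D1086.10, F54F7.3, T10E9.3 and Y45F10C.4). Both tables list 2 more genes as lower, the yolk protein gene vit-6 (−2.15 in N2 and 0.92 in VZ1) and ttr-14 (−0.27 and −0.53). Thus vit-6 was lower in N2 and higher in VZ1, and ttr-14 lay above the collagen range in N2. Neither pattern is particular to the sequence-named genes. With 1 library a group, the difference between these sets of genes has no test.

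**Figure D2:**
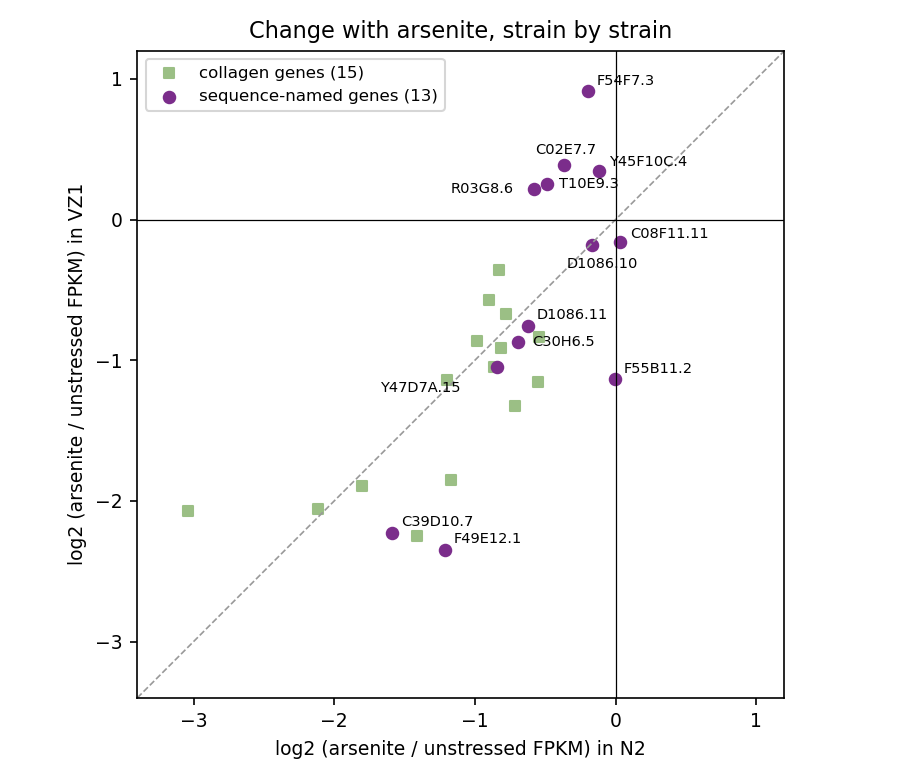
Log2 ratio of arsenite to unstressed FPKM in N2 (horizontal) and in VZ1 (vertical) for 13 sequence-named genes (purple circles) and 15 collagen genes (green squares) that both strain tables list as lower in VZ1, with the line of equal change dashed. All squares lie below 0 on both axes, while 5 circles lie above 0 in VZ1, with F54F7.3 highest at 0.91.

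The authors' stress tables list 2 members' loci, both for N2 and in opposite directions. The locus of ZK792.1, ZK809.5 and ZK809.9 (chromosome IV, 11656327 to 11667864), neighbouring genes on 1 strand, has 1 value a library for its 3 genes. In the authors' deposited table it rose from 47.8 FPKM in unstressed to 474 FPKM in stressed N2, 9.92-fold (q = 0.00735), where risen genes make up 0.799% of 14397 tested. In the strain table for arsenite it stood at 486 FPKM in stressed N2 and 39.3 FPKM in stressed VZ1, 12.4-fold lower. The stressed VZ1 level thus lies near that of unstressed N2. The locus is listed neither for arsenite in VZ1, where 0.61% of 14420 genes tested rose, nor between the unstressed strains, so its level in unstressed VZ1 is not known here, and a difference in response between the strains was not tested.

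F15E11.15 (pud-3; chromosome V, 2324633 to 2327207) went the other way. In the authors' deposited table it fell from 145 to 18.51 FPKM with arsenite in N2, 7.84-fold (q = 0.00735). Without stress it stood at 135 FPKM in N2 in the strain table and at 10.8 FPKM in VZ1, 12.5-fold lower. The value of unstressed VZ1 is thus under that of stressed N2, and the gene is listed neither between the stressed strains nor for arsenite in VZ1. For the N2 library that both tables hold, the FPKM in the strain table was 0.932 times that in the stress table for F15E11.15 and 1.03 times for the ZK792.1 locus.

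**Figure D3:**
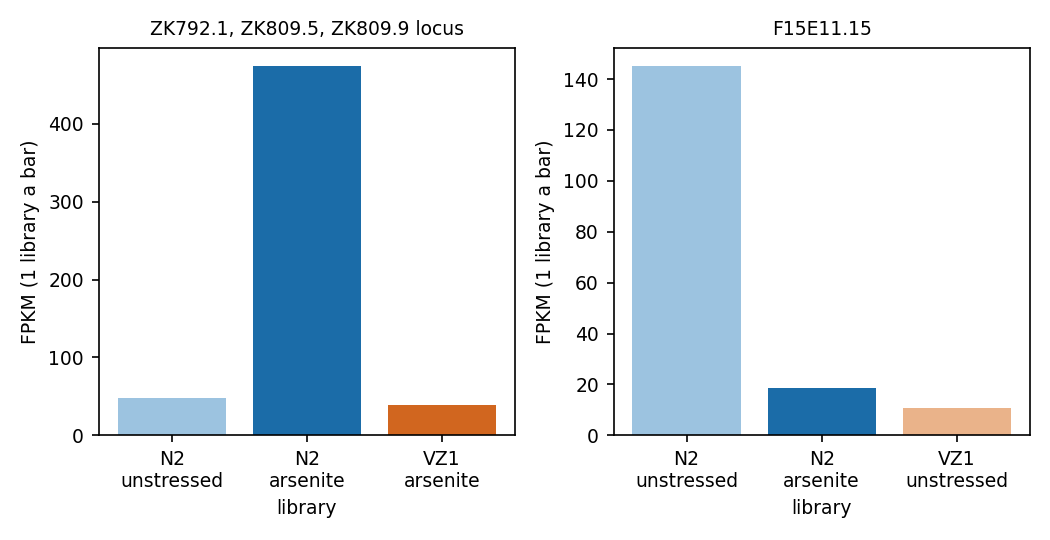
FPKM (bars from 0, 1 library each) of the 2 loci that the N2 stress table also lists, the N2 bars from that table and the VZ1 bars from the strain tables. Of the 3 libraries with a value, the ZK792.1 locus is highest in stressed N2 (474 FPKM) and F15E11.15 in unstressed N2 (145 FPKM).

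Without stress alone, 10 genes were listed. The neighbours R12E2.14 (chromosome I, 4150000 to 4150563) and R12E2.7 (4154068 to 4154405) stood at 2035 and 1199 FPKM in N2 and at 464 and 234.7 FPKM in VZ1. With coding sequences of 74 and 82 amino acids they are among the shortest members and the most strongly expressed. D1086.6 had the largest ratio of this set, from 12.04 FPKM in N2 to 0.391 FPKM in VZ1, 30.8-fold lower, but the largest q of any member in that table, 0.0458. T06E4.8 (idpc-5) stood at 113 and 20.8 FPKM in N2 and VZ1, C05E7.2 (gmap-3) at 109 and 21.4 FPKM, and the protease gene F48E3.4 (try-14) at 24.5 and 3.13 FPKM. F12E12.1 and F40G12.11 were listed at 0 in VZ1 and at 2.33 and 0.862 FPKM in N2, and no ratio is given. F55B11.7 has only the value of the locus it shares with F55B11.2.

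Under arsenite alone, 22 genes were listed. The short genes C02E7.6 (chromosome V, 4919227 to 4919496; 70 amino acids) and H23N18.5 (4911770 to 4912366; 108 amino acids) stood at 2419 and 1025 FPKM in N2 and at 464 and 226 FPKM in VZ1. They lie on either side of C02E7.7. The locus of C04G6.2 and C04G6.13 had the largest ratio of this set, from 156 FPKM in N2 to 11.114 FPKM in VZ1, 14.001-fold lower. Next came the ZK792.1 locus and F38B2.6, a gene of 95 amino acids at 96.2 and 10.2 FPKM. K02E11.10 had 219 FPKM in N2 against 36.6 FPKM in VZ1, the locus of R07E5.4 and R07E5.5 at 184 and 32.1 FPKM, and ZK84.1 at 141 and 28.04 FPKM. The smallest ratio of all members was that of F10D11.6, from 134 FPKM in N2 to 35.7 FPKM in VZ1, 3.74-fold lower.

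Between 19.9 and 83.7 FPKM in stressed N2 were M02G9.2 (idpp-4), F07H5.8 (appg-2), T06D8.10 and D2092.8, which were 7.88-fold, 5.25-fold, 4.50-fold and 4.77-fold lower in VZ1. D2092.8 and F38B2.6 lay just inside the authors' threshold with q = 0.0492, and values beyond it are not in the tables. Listed at 0 in stressed VZ1 were R12E2.6, C55C3.7 and F22F4.5, whose levels in stressed N2 were 13.5, 1.75 and 1.96 FPKM. A gene missing from a table has no value there, so a listing in 1 condition does not show that the strain difference depends on arsenite.

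**Figure D4:**
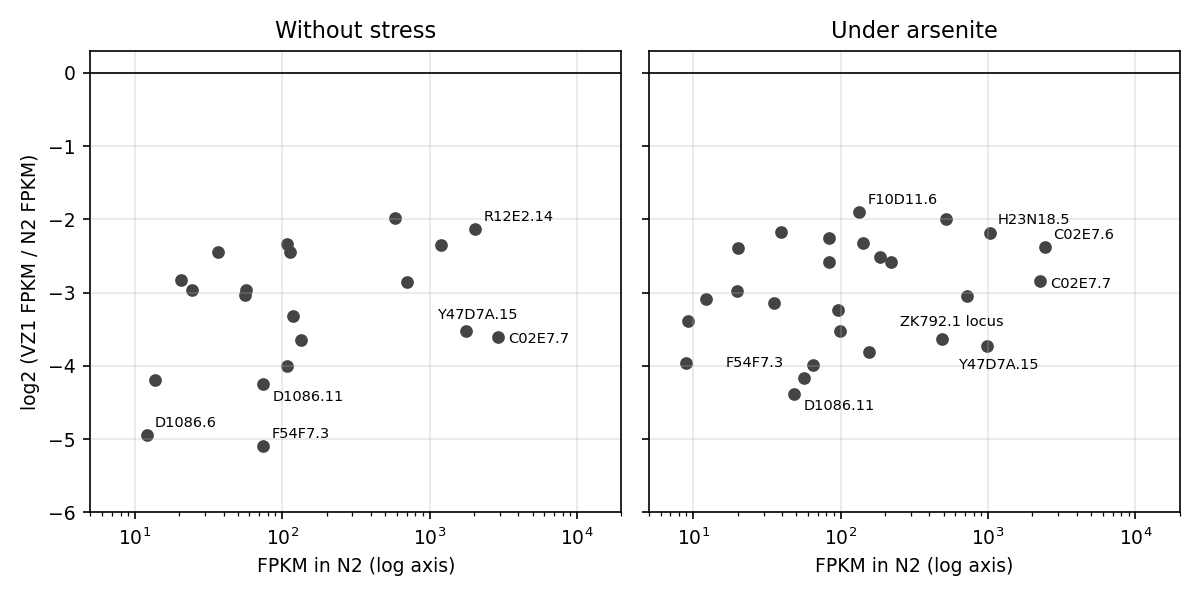
Log2 ratio of VZ1 to N2 FPKM against FPKM in N2 (log axis) for the members' loci with values above 0, 20 without stress (left) and 26 under arsenite (right), 1 library a strain. All points lie below 0 because the members were chosen so, from −1.90 for F10D11.6 under arsenite to −5.10 for F54F7.3 without stress.

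The members' N2 levels spanned 0.862 to 2916 FPKM without stress (median 90.8) and 1.75 to 2419 FPKM under arsenite (median 83.8), under the medians of 204 and 213 FPKM of the other lower entries. Of the 10 highest N2 levels among the genes lower in VZ1, members held 6 without stress and 2 under arsenite. Their coding sequences, in Ensembl's gene models for WBcel235, ran from 66 to 1490 amino acids (T06D8.10), with a median of 216 beside 329 over all 19985 protein-coding genes. Under 150 amino acids were 12 of the 45, or 26.7%, beside 17.3% of all genes and none of the 31 collagen genes listed lower, whose lengths lie between 278 and 381. Of these 12 short genes 7 exceeded 100 FPKM in N2 in at least 1 table. Not counted is R07E5.5, whose locus, shared with R07E5.4, stood at 184 FPKM. Among all members' loci, the short genes included, 11 of 22 without stress and 12 of 29 under arsenite exceeded that level. Longer members also did so, such as T10E9.3 without stress (583 amino acids, 118 FPKM) and K02E11.10 under arsenite (360 amino acids, 219 FPKM). The counts by table and the count over either table are unlike measures. They do not show whether short genes exceeded that level more often than longer ones. Across loci of 1 gene, level in N2 and coding length had Spearman's rho of −0.55 (21 loci, without stress) and −0.40 (25 loci, under arsenite), a description across genes of the same libraries. Only loci listed by the authors' test entered, and short genes of low level may be missing from the lists. A negative rho may thus follow from the listing, which was not tested, and it does not describe unlisted genes. FPKM divides by exon length, and how the authors' program treated such short transcripts is not given in the sources used here. Its part in these levels was not tested.

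Several members were neighbours. Within 20 kb of another member, or in 1 locus with it, stood 22 of the 45 genes, in 8 groups. In 3 of these groups, with 7 genes, all members share 1 locus and 1 value, so that they are no separate observations, and F55B11.2 and F55B11.7 share a locus without stress. The largest group was that of D1086.11, D1086.6, D1086.10, D1086.7 and D1086.18, 5 consecutive protein-coding genes on 1 strand within 15.7 kb of chromosome V (14071401 to 14087130). D1086.7 and D1086.18 have only the value of the arsenite locus they share with D1086.10. Without stress the strain ratios of the others were unlike. They were 3.96-fold for D1086.10, 18.99-fold for D1086.11 and 30.8-fold for D1086.6, the last with only 0.391 FPKM in VZ1. H23N18.5, C02E7.7 and C02E7.6 lie within 7.73 kb of chromosome V, all at over 1000 FPKM in stressed N2, and C02E7.6 is on the opposite strand to the other members of its group. R12E2.14, R12E2.6 and R12E2.7 lie within 4.41 kb of chromosome I, with R12E2.14 on the opposite strand. C08F11.11 and Y45F10C.4 are 15.99 kb apart on chromosome IV with 6 protein-coding genes between them that are not members.

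Counted by locus, 11 of 38 members' loci (28.9%) had another within 20 kb, beside 10 of 61 loci (16.4%) of the other genes lower in VZ1, a difference that was not tested. T06E4.8 was the only member within 20 kb of a lower gene with a symbol, 4.57 kb from pqn-63 (40.6 FPKM in N2 and 7.01 FPKM in VZ1 without stress). By chromosome the members' shares were close to those of all genes, with 28.9% of members and 25.0% of protein-coding genes on V, except for III, which holds 2 members (4.44%) and 13.2% of the genes.

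**Figure D5:**
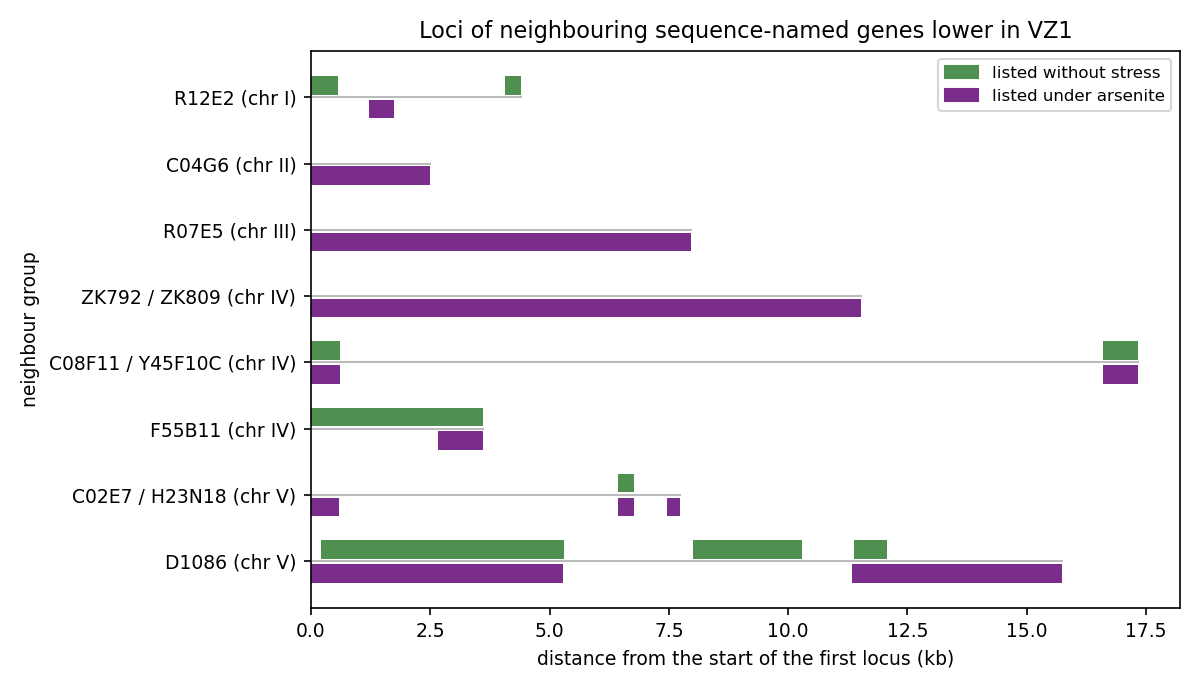
Extent of the loci in the 8 groups of neighbouring members, as distance in kb from the start of the first locus, green where listed without stress and purple where listed under arsenite. The D1086 group is the largest in genes (5), and the C04G6, R07E5 and ZK792 groups are 1 locus each.

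The same lists held markers of several tissues. Of 200 genes of the cuticle collagen list 24 were lower in VZ1 without stress, and 25 were lower and 1 higher (col-3) under arsenite. Of 9 intestine markers 4 were lower without stress, all yolk protein genes, with summed FPKM of 572 in N2 and 19.04 in VZ1, and 1 under arsenite (52.3 and 12.6 FPKM). Of 8 epidermis markers 2 were lower without stress (329 and 7.50 FPKM summed) and 1 under arsenite (155 and 3.18 FPKM). Of 8 germline and oocyte markers puf-5 and cpg-2 were lower without stress (162 and 37.2 FPKM summed) and none under arsenite, and of 7 sperm markers msp-152 was lower under arsenite (212 and 23.6 FPKM). Each sum covers only markers listed as lower, so its difference between the strains follows from the listing. Unlisted markers have no value and enter no sum. Of all genes tested, 0.416% were listed lower without stress and 0.488% under arsenite. No listed marker was at 0, and none of the 3 muscle or 4 neuron markers was listed, trx-1 included, so the tables hold no level that could check the strain labels. The part of tissue make-up or stage in the members' ratios was not tested. Among genes that are no members, ttr-14, col-162 and col-157 had strain ratios nearest to the medians of the 13 genes (log2 −3.32 without stress and −3.39 under arsenite). The log2 ratios of ttr-14, a transthyretin-related gene, were −2.93 and −3.19.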

How the data were processed

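RNA-seq values of 4 libraries, 1 for each strain and condition, were used as 4 deposited tables of library pairs. The authors' reads went through Bowtie2, TopHat and Cufflinks with genome build ce10, per the submitters' processing notes, for which no version or annotation is given in the sources used here. FPKM values, and the p-values and q-values of the authors' tests, are those deposited by the authors for each pair, normalised separately. Each row is marked significant by the authors, with q of at most 0.0492 in the strain tables. Libraries have no replicates and no test was computed.

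Members are rows lower in VZ1 whose name, or locus identifier where the name is blank, holds only sequence names. The tables were joined by name. Y47D7A.15 was used by its entry of higher N2 level. Log2 ratios have no pseudocount. The number of genes tested is q times rank divided by p, checked on simulated p-values. Coordinates are the tables'. WBcel235 annotations gave names, strand, gene order and coding length. The members and lists were chosen with earlier results of these data known. Named genes were all members in both tables, those at 0, with extreme ratio, level or q, near another member or in a stress table. The remaining members were named by range. Planned protein and promoter features were not analysed here. Python 3.11.15, pandas 2.3.3 and matplotlib 3.10.9 were used.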

Additional observations from a re-analysis of the deposited data

Results flagged for a closer look

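For 6 of the 13 genes listed in both strain tables, the log2 ratio of stressed to unstressed FPKM had opposite signs in the strains. It was lower in N2 and higher in VZ1 for F54F7.3 (VZ1 minus N2 1.11), R03G8.6 (0.80), C02E7.7 (0.76), T10E9.3 (0.74) and Y45F10C.4 (0.47), and slightly higher in N2 and lower in VZ1 for C08F11.11 (−0.19). The VZ1 levels were low for R03G8.6 (0.756 FPKM unstressed and 0.881 FPKM stressed) and F54F7.3 (2.17 and 4.09 FPKM). The locus of T10E9.3 differs in extent between the tables. Each ratio rests on 1 library a condition and on tables normalised separately, and the difference was not tested.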

How the results depend on the processing

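Counts of members' loci stayed within 1.5 times the reported ones under all alternatives run (q of at most 0.025, at least 1 FPKM in N2, loci of 1 gene, current sequence names): 15 to 22 without stress, 24 to 29 under arsenite and 10 to 13 genes in both. The median log2 strain ratio without stress, −3.004, was −2.97 for loci of 1 gene, −3.52 for genes still known only by sequence, −2.83 with a pseudocount of 1 FPKM and −3.14 with 0.1 FPKM. Under arsenite, −3.01 became −3.08 for current sequence names, −2.55 with 1 FPKM and −3.05 with 0.1 FPKM. The median arsenite change in N2, −0.49, was −0.58 for loci of 1 gene, −0.47 for current sequence names, −0.48 with 1 FPKM and, over the 7 loci of the same extent, −0.37. In VZ1, −0.18 was −0.16 for loci of 1 gene, −0.47 for current sequence names and, reversed, 0.22 over loci of the same extent, where 4 of 7 genes were above 0 while 5 of the 6 left out were below 0. The use of same-extent loci and of the other Y47D7A.15 entry, which changed no median, was chosen after seeing the data. No paired analysis was possible because each group has 1 library. Depth is unknown, so no counting interval is given.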
